A study of Mus musculus with 9 samples.

Results

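Reads of 10 platelet genes were followed across the 9 RNA-seq libraries of sorted mouse neutrophils. The genes are Pf4, Ppbp, Gp9, Gp1ba, Gp1bb, Itga2b, Itgb3, Treml1, Tubb1 and Clec1b, found by symbol among the 46517 genes of the table, each with 1 row. They were chosen by their high level in the blood libraries, so their blood values are given as a description, without a test. All 10 had reads in every blood library, and all 10 passed the filter on low values, which asks for deposited values above 0 in 3 or more libraries. Of these, 6 had no value above 0 outside the blood libraries.

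The mice were C57BL/6 and carried an orthotopic pancreatic ductal adenocarcinoma (PDAC). Cells of a tumor line derived from KPC mice had been injected into the pancreas, and tissues were taken on day 27. The study's methods give neither the age of these mice nor a platelet marker in the gate. Cells were sorted as Dapi-, CD45+, negative for CD3, B220 and NK1.1, and positive for Ly6G and Ly6C, from a pool of mice per experiment. There were 3 libraries each of bone marrow neutrophils, labelled Ly6G.hi, of blood neutrophils and of tumor-infiltrating neutrophils, the last 2 groups labelled Ly6G+. All 9 came from tumor-bearing mice, and no library of healthy blood was analysed here. A library is a pool, so its value says nothing of the spread between mice.

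Platelets are small blood cells without a nucleus that bud from megakaryocytes in the marrow and carry megakaryocyte RNA with them. They store chemokines and clotting proteins in alpha granules, bind von Willebrand factor through the glycoprotein Ib-IX-V complex, and bind fibrinogen through the integrin αIIbβ3. Activated platelets adhere to neutrophils, mainly through P-selectin on the platelet and PSGL-1 on the neutrophil. In RNA of a whole sorted population, platelets attached to neutrophils, free platelets and transcripts of the neutrophils themselves cannot be told apart, nor can fewer cells and less RNA per cell.

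Whole reads were recovered from the deposited values for all 46517 genes. Totals per library ran from 4580807 to 7949367 reads, and 0 reads in a library allows a level of up to 0.378 to 0.759 reads per 1000000. Levels are given in counts per 1000000 reads (RPM) of the authors' scaled library sizes. Intervals cover counting error only. Of 12 neutrophil markers, 9 were lower in blood than in bone marrow in limma's fit (2 higher), against 23.6% of all genes (20.6% higher). In tumor against bone marrow 11 were lower (0 higher), against 32.9% of all genes (22.4% higher). Ly6g, which encodes the marker of the sort, had 200 to 456 reads in tumor, 580 to 654 in blood and 4527 to 5241 in bone marrow. Camp, a granule gene of maturing neutrophils, had 10791 to 12771 reads in bone marrow and 88 to 99 in blood, while Csf3r, the G-CSF receptor, had 13802 to 18048 in bone marrow and 52750 to 72754 in blood. The blood 2 library stood apart from the other blood libraries in several tumor epithelium genes, with 406 reads of Krt8 against 3 and 5. Krt19 had 234 reads there against 1 and 2. Krt7 differed less (77 against 39 and 53), and Muc1 had fewest reads in blood 2 (44 against 54 and 51).

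Over the 10 genes, blood libraries held 5309, 8637 and 5381 reads, bone marrow libraries 646, 822 and 740, and tumor libraries 206, 473 and 289. The summed level was 1346 ± 200 RPM in blood (SD, n = 3), 118 ± 25 RPM in bone marrow (SD, n = 3) and 44.0 ± 16.1 RPM in tumor (SD, n = 3). Even in blood the 10 genes took 0.0967% to 0.126% of all reads. Without Itgb3, a choice made after seeing the data, the sum was 1018 ± 161 RPM in blood, 17.0 ± 2.4 RPM in bone marrow and 11.2 ± 8.4 RPM in tumor (SD, n = 3). The ratio of blood to bone marrow was 11.4 with Itgb3 and 59.9 without it.

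Every member was higher in each blood library than in each of the 6 other libraries. Of all 7794 genes tested, 19.1% showed this separation. Since the same values chose the genes, nothing is read from this count. In limma's fit across all genes, the log2 difference from bone marrow ran from 1.72 ± 0.26 (SE) for Itgb3 to 9.0 ± 1.3 (SE) for Treml1, which had 2 reads in bone marrow, with a median of 5.69 against -0.04 over all genes. From tumor it ran from 3.33 ± 0.26 (SE) for Itgb3 to 9.02 ± 1.31 (SE) for Ppbp, with a median of 7.26 against 0.17 over all genes.

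**Figure D1:**
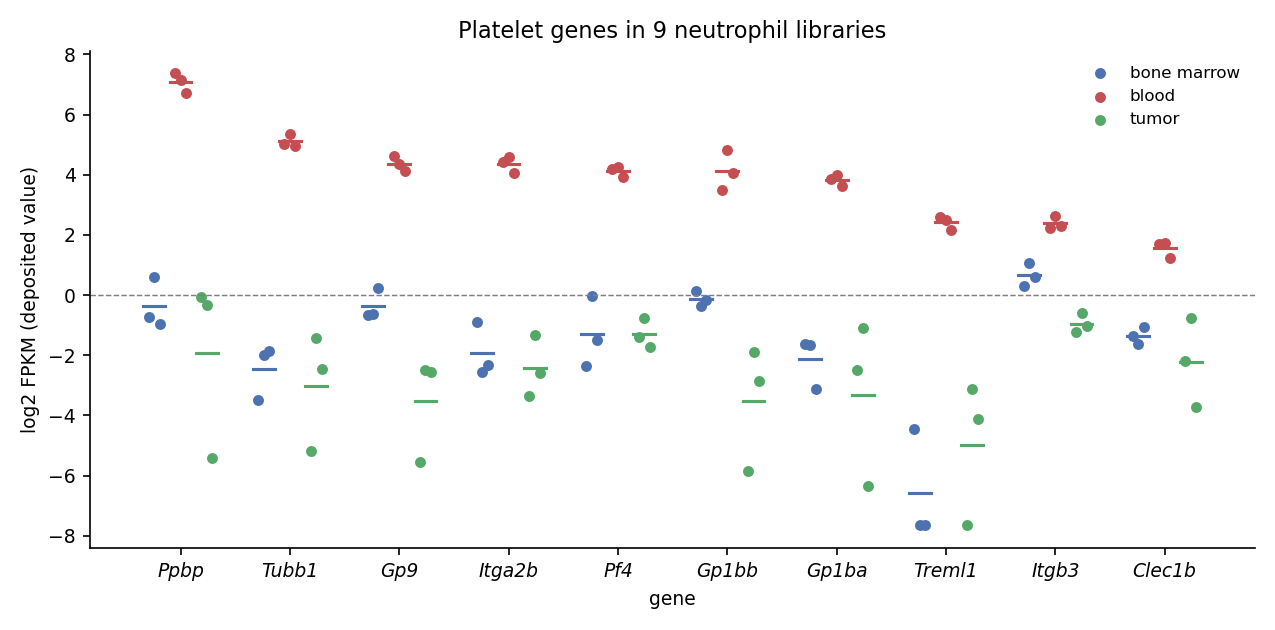
Deposited log2 FPKM (vertical axis) of the 10 platelet genes (horizontal axis), with 1 point for each library, coloured by compartment, and a line at the mean of 3. The blood points lie above all bone marrow and tumor points for each gene, and the distance is smallest for Itgb3 and Clec1b. Levels of different genes are not comparable on this axis, because the deposited lengths are mostly genomic spans.

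Pf4 and Ppbp encode the platelet chemokines CXCL4 and CXCL7, which are stored in alpha granules. Pf4 (ENSMUSG00000029373.7) lies at chr5:90772435-90773383 on the plus strand of GRCm38, and Ppbp (ENSMUSG00000029372.7) starts 3917 bases before it, at chr5:90768518-90770063. Pf4 had 68, 100 and 68 reads in the blood libraries, 1, 5 and 2 in bone marrow and 2, 4 and 2 in tumor. No library outside blood came above 5 reads of this gene. Ppbp had 1009, 1235 and 764 reads in blood, 6, 13 and 5 in bone marrow, and 9, 9 and 0 in tumor. The pooled level of Ppbp in blood was 167 times that in bone marrow (95% counting interval 112 to 262) and 255 times that in tumor (161 to 431). For Pf4 the same ratios were 39.4 (19.7 to 92.3) and 45.0 (22.5 to 106).

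Both lie in a cluster of chemokine genes, and the neighbours Cxcl5, Cxcl3 and Cxcl2 had another pattern. Cxcl5, upstream of Ppbp, had 0, 3 and 5 reads in blood and 244, 121 and 170 in tumor. Cxcl3, downstream of Pf4, had 13, 7 and 1 reads in blood and 4621, 7157 and 2919 in tumor. Cxcl2 had 125 to 203 reads in blood against 29983 to 52152 in tumor. The log2 difference of blood from tumor was -6.39 for Cxcl5 (adjusted p = 0.00288), -9.28 for Cxcl3 (adjusted p = 6.11e-05) and -7.21 for Cxcl2 (adjusted p = 2.65e-06) in limma's fit. These genes were picked for their position beside the members. Cxcl5 and Cxcl3 were above the filter only in the tumor libraries, so their p-values are given as a description. Thus Pf4 and Ppbp were highest in blood, while the genes on either side of them were highest in tumor.

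**Figure D2:**
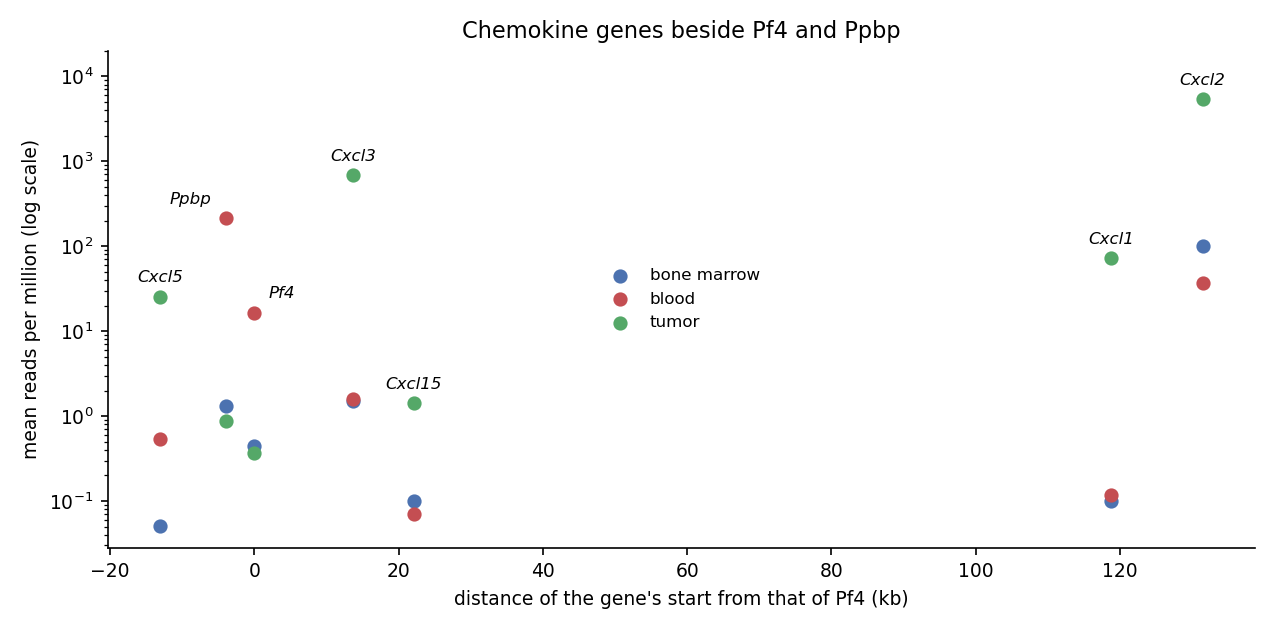
Mean RPM (vertical log axis, n = 3 libraries per point) of 7 chemokine genes against the distance of their start from that of Pf4 in kb (horizontal axis), with colours for the compartments. Ppbp and Pf4 have their highest point in blood, and Cxcl5, Cxcl3, Cxcl15, Cxcl1 and Cxcl2 in tumor.

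Gp1ba, Gp1bb and Gp9 encode 3 chains of the glycoprotein Ib-IX-V complex, the receptor that tethers platelets to von Willebrand factor. Gp1ba (chr11:70639122-70642036, plus strand) had 166, 261 and 167 reads in blood, 6, 5 and 2 in bone marrow, and 3, 10 and 0 in tumor. Gp9 (chr6:87778072-87779768, plus strand) had 163, 196 and 139 reads in blood, 7, 6 and 13 in bone marrow, and 0, 2 and 2 in tumor. For both genes the lowest blood library held more than 10 times the reads of any library outside blood. Gp1bb (chr16:18620317-18622403, minus strand) had 92, 328 and 162 reads in blood, 15, 9 and 12 in bone marrow, and 0, 4 and 2 in tumor. Its level varied most among the blood libraries, from 23.3 to 58.7 RPM, a ratio of 2.52, whereas this ratio was 1.23 to 1.57 for the other 9 genes. Gp1bb overlaps Sept5 over 1902 bases and Gm49601 over 1938 bases on the same strand, where reads of these genes cannot be told apart. Sept5, a septin gene, went the other way, with 523 to 674 reads in bone marrow against 20 to 38 in blood.

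The pooled level in blood was 61.0 times that in bone marrow for Gp1ba (95% counting interval 35.4 to 115), 25.6 times for Gp9 (17.2 to 39.5) and 21.6 times for Gp1bb (15.4 to 31.1). The fourth chain, Gp5, is not a member but belongs to the same receptor. It had 293, 389 and 259 reads in blood, 2, 0 and 3 in bone marrow, and 0, 2 and 0 in tumor. As for the other chains, nearly all of its reads were in the blood libraries.

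Itga2b and Itgb3 encode the αIIb and β3 chains of the fibrinogen receptor, and their reads differed in where they were found. Itga2b (chr11:102453297-102470122, minus strand) had 1415, 2245 and 1323 reads in blood, 60, 16 and 22 in bone marrow, and 10, 50 and 22 in tumor, and a small RNA gene, Gm23563, lies within 251 of its bases. Itgb3 (chr11:104608000-104670476, plus strand) had 1146, 2167 and 1427 reads in blood, but still 514, 736 and 633 in bone marrow and 165, 315 and 241 in tumor. In blood there were 0.810, 0.965 and 1.08 reads of Itgb3 for each read of Itga2b. This number was 8.57, 46.0 and 28.8 in bone marrow and 16.5, 6.30 and 10.95 in tumor, so the pair was balanced in the blood libraries and not in the others. The β3 chain also pairs with αv, whose gene Itgav is expressed well beyond platelets. Itgav reads numbered 235 to 476 in tumor, 142 to 174 in bone marrow and 61 to 159 in blood. The pooled blood level was 67.9 times that in bone marrow for Itga2b (95% counting interval 55.6 to 83.8) and 3.36 times for Itgb3 (3.18 to 3.55).

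Treml1, Tubb1 and Clec1b encode a receptor of alpha granules (TLT-1), the tubulin of the platelet's marginal band and the podoplanin receptor CLEC-2. Treml1 (chr17:48359916-48367176, plus strand) had 175, 230 and 152 reads in blood, 2, 0 and 0 in bone marrow, and 0, 6 and 3 in tumor. With 2 reads in bone marrow its pooled ratio was 372, with a 95% counting interval of 102 to 3077. Tubb1 (chr2:174450695-174457882, plus strand) had 922, 1651 and 1046 reads in blood, 4, 10 and 13 in bone marrow, and 1, 20 and 10 in tumor. Its pooled level in blood was 179 times that in bone marrow (123 to 272) and 178 times that in tumor (125 to 263). Clec1b (chr6:129397297-129409335, plus strand) had 153, 224 and 133 reads in blood, 31, 22 and 38 in bone marrow, and 16, 53 and 7 in tumor. Its blood level was 7.48 times that in bone marrow (5.97 to 9.46), so Clec1b and Itgb3 were the members with the smallest differences. The last 474 bases of Clec1b overlap Clec9a on the same strand, and Clec9a itself had 0 to 17 reads.

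Levels of different genes were compared per length, as RPM per kb of annotated exons. In blood, Ppbp (197 ± 43, SD, n = 3) and Tubb1 (178 ± 28) stood highest, and their libraries overlapped. Itga2b (63.7 ± 11.1) and Itgb3 (55.5 ± 9.0) came next and also overlapped. Below them, Gp9 was at 40.1 ± 6.6, and Treml1 (28.0 ± 4.4), Pf4 (22.9 ± 2.5), Gp1bb (18.6 ± 8.7) and Gp1ba (15.3 ± 2.1) each overlapped with the next in this order. Clec1b was lowest, at 7.0 ± 1.3, with no overlap.

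The relative make-up of the 9 members other than Itgb3 was alike in the 3 blood libraries. Itga2b took 33.5% to 34.7% of their reads, Tubb1 22.1% to 26.5%, Ppbp 19.1% to 24.2%, and Gp1ba 3.99% to 4.22%. The highest share was at most 1.29 times the lowest for 8 of the 9 genes, and 2.29 times for Gp1bb. In bone marrow the same reads were made up otherwise, from few reads, with Clec1b at 23.5% to 35.5%, Gp1bb at 10.5% to 11.4% and Tubb1 at 3.03% to 12.1%. With Itgb3 included, it alone took 79.6% to 89.5% of the members' reads in bone marrow and 66.6% to 83.4% in tumor, but 21.6% to 26.5% in blood.

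**Figure D3:**
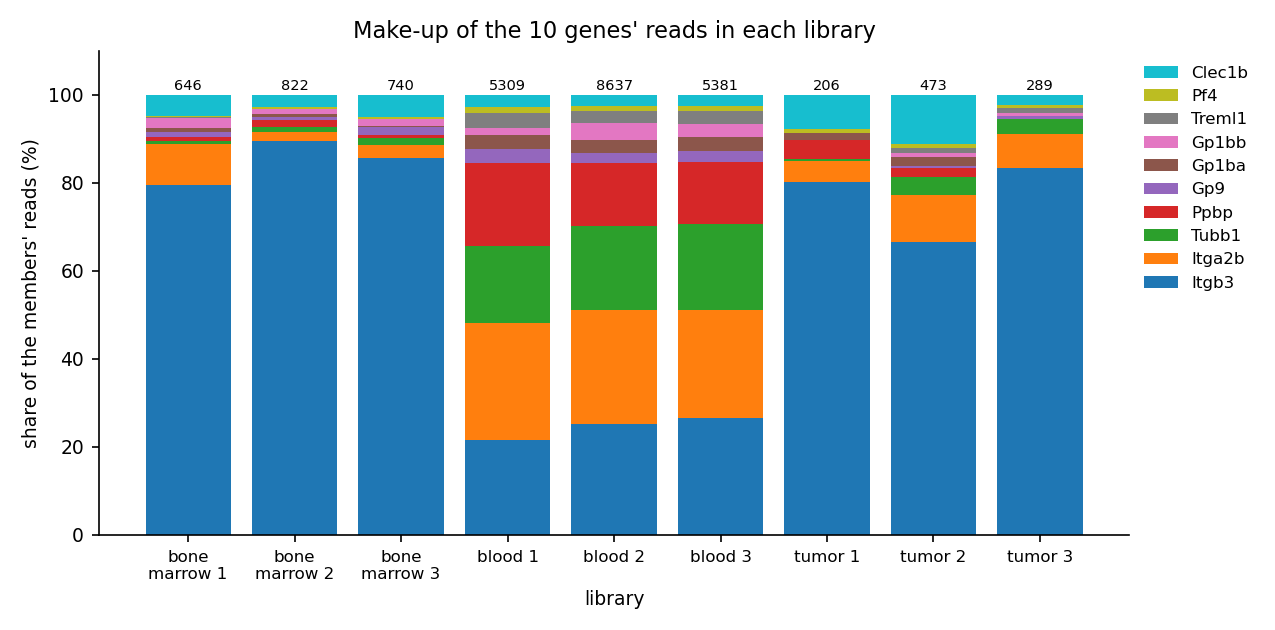
Share of the 10 members' reads taken by each gene (vertical axis, %) in each of the 9 libraries (horizontal axis), with the number of reads above each bar. The 3 blood bars are alike, with Itga2b, Itgb3, Tubb1 and Ppbp in large blocks, and Itgb3 fills most of each bone marrow and tumor bar.

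The rule that chose the genes did not use the difference between tumor and bone marrow. Itgb3 alone was above the filter in 3 libraries outside blood, so only its value is read as a test. The other 9 of the 10 genes entered the fit only with the help of their blood values. Their adjusted p-values are given as a description, and nothing is concluded from them. In limma's fit, Itgb3 was lower in tumor by a log2 difference of -1.61 ± 0.26 (SE), with an adjusted p of 0.00115. Gp9 differed by -3.19 ± 0.77 (adjusted p = 0.00895) and Gp1bb by -3.39 ± 0.92 (adjusted p = 0.0146), but these rest on 4 and 6 reads in all 3 tumor libraries together. Without the filter on low values, the adjusted p was 0.0624 for Gp9 and 0.093 for Gp1bb, and with log2(FPKM + 1) that of Gp1bb was 0.0501. Thus 3 of 10 members were called lower in tumor, near the share of all genes, where 32.9% of all genes were, and 0 of 10 higher, where 22.4% were (0 at an unadjusted p under 0.05, and 0 by limma-voom). The other 7 had adjusted p-values of 0.291 to 0.999. Their pooled ratios of tumor to bone marrow ran from 0.656 for Ppbp (95% counting interval 0.335 to 1.26) to 3.94 for Treml1 (0.815 to 37.4). Leaving out the tumor 1 library brought Treml1 to an adjusted p of 0.0483 at a log2 difference of 2.95, and leaving out tumor 2 brought Clec1b to 0.0264 at -1.61. Neither gene was above the filter in any library outside blood, and Treml1 had only 2 reads in bone marrow and 9 in tumor. Among the tumor libraries, 9 of the 10 members were highest in tumor 2, some by few reads (Pf4 with 4 against 2 and 2). Gp9 had 2 reads in tumor 2 and also 2 in tumor 3, and differed only through the library sizes. The share of all genes highest there was not counted.

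The members' start sites were read as a description, since the common pattern of the members follows from their choice by blood level. Promoters are given from RefSeq (GRCm38.p6), 250 bases before to 50 after the start, for 9 of the 10 genes. GATA1 and ETS factors such as FLI1 are the regulators best known for megakaryocyte genes. The letters AGATAA or TGATAA, searched on both strands, were in 3 of the 9 promoters and in 18.6% of all 32851 promoters of that length. GGAAG, the core read by ETS factors, was in 8 of the 9 and in 71.4% of all promoters, again on both strands. In these 9 promoters no match of one shared bases with a match of the other. The 3 promoters with a GATA match are shown with that of Itga2b, which had the most matches of GGAAG, and capitals mark matches on either strand. They lie at chr5:90772185-90772484 (plus strand, Pf4), chr11:70638872-70639171 (plus strand, Gp1ba), chr6:129397047-129397346 (plus strand, Clec1b) and chr11:102469834-102470133 (minus strand, Itga2b).
Pf4: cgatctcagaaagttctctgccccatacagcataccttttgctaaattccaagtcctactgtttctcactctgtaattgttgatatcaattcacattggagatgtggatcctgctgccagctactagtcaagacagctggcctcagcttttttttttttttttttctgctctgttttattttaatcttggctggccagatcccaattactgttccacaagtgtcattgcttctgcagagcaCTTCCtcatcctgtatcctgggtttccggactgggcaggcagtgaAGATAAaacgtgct
Gp1ba: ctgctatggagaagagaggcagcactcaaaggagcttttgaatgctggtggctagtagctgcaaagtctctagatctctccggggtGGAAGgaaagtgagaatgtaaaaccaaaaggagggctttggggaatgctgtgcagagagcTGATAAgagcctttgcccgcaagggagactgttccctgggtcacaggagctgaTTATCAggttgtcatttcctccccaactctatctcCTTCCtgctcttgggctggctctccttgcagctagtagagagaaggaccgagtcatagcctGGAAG
Clec1b: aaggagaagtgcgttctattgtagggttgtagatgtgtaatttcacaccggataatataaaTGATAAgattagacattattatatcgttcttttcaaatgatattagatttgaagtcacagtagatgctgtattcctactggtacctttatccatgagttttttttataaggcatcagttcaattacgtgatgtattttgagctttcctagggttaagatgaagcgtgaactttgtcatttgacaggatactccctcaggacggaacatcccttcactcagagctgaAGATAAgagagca
Itga2b: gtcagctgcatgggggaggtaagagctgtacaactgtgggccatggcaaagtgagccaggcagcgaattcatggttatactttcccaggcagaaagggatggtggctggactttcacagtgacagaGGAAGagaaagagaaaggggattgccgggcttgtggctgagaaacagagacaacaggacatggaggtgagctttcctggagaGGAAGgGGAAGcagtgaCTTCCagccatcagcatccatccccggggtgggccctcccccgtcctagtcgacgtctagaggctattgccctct
Gp1ba held 2 GATA matches, the nearer of which ended 46 bases before the start. The matches of Pf4 and Clec1b near the end of the window began at bases 37 and 38 counted from the start site. Itga2b held 4 matches of GGAAG, 3 of them within 42 bases before the start. A match describes letters, and no match says only that they are not in this window.

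Other platelet genes were counted from lists of receptors, granule proteins, signalling and cytoskeleton genes and megakaryocyte transcription factors. Of 82 such genes in the table, 37 passed the filter. In blood against bone marrow, 15 of these were higher, where 20.6% of all genes were, and 7 were lower, where 23.6% were. Their median log2 difference was 0.37, against -0.04 over all genes. In blood against tumor, 20 were higher (34.5% of all genes) and 8 lower (28.1%), and in tumor against bone marrow 12 were higher (22.4%) and 16 lower (32.9%).

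Since the deposited lengths are mostly spans, the filter removed long genes with many reads, such as Vwf. With a filter on at least 5 reads in any library in its place, 77 of the genes were tested and 31 were higher in blood than in bone marrow, where 12.6% of all genes were, and 8 lower, where 16.3% were. By role, 12 of 22 receptors, 13 of 23 signalling and cytoskeleton genes and 6 of 20 granule proteins were higher. Of 12 megakaryocyte transcription factors, 0 were called higher by limma and 1 lower, with 1 higher at an unadjusted p under 0.05, and limma-voom called 1 higher and 2 lower. Gata1, the master regulator of the lineage, had 29, 42 and 10 reads in blood, 13, 11 and 4 in bone marrow and 0 in each tumor library (adjusted p = 0.0808 in limma's fit for blood against bone marrow). Nfe2, needed for platelet release, had 1944 to 3561 reads in blood and 3804 to 4665 in bone marrow, and is also expressed in neutrophils.

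**Figure D4:**
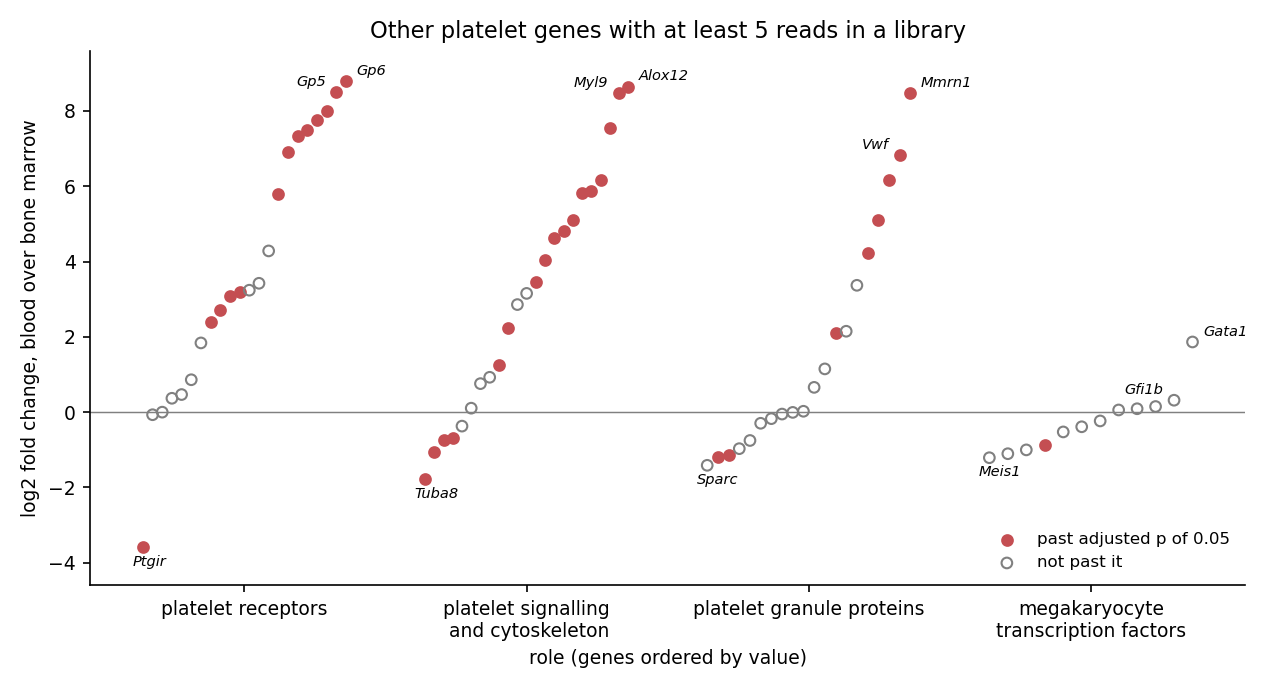
Log2 difference of blood over bone marrow (vertical axis) of the 77 other platelet genes with at least 5 reads in a library, by role (horizontal axis, ordered by value), 3 libraries per group. Filled points passed an adjusted p of 0.05 in limma's fit. Receptors, signalling genes and granule proteins reach values above 8, and the transcription factors stay between -2 and 2.

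Alox12, the platelet 12-lipoxygenase, had 869, 1426 and 807 reads in blood and 2, 5 and 3 in bone marrow, a log2 difference of 8.65 (adjusted p = 0.0018). Gp5 differed by 8.51 (adjusted p = 0.000796), and Myl9, a myosin light chain, by 8.48 (adjusted p = 2.01e-05). Myl9 also had 60, 97 and 69 reads in tumor, where it was higher than in bone marrow by 4.49 (adjusted p = 0.000156). G6b, an inhibitory receptor of platelets, differed by 8.0 (adjusted p = 0.00248). Alox12, Gp5 and G6b were above the filter only in the blood libraries, and Myl9 only in blood and tumor. They were also named for their large differences, so these p-values are given as a description. The collagen receptor gene Gp6, named after its values were seen, had 88, 96 and 51 reads in blood and 0 in each bone marrow library, at least 105-fold higher against a floor of 3 reads over the group. Vwf and Mmrn1, also named after their values were seen, encode von Willebrand factor and multimerin of the granules. Vwf had 315, 602 and 305 reads in blood against 1 to 15 in bone marrow, and Mmrn1 had 168, 284 and 247 against 0 to 2.

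Some genes of the lists were higher in blood than in bone marrow and also present in tumor. Esam, a junction molecule of platelets and endothelium, had 62, 88 and 51 reads in blood, 3, 0 and 0 in bone marrow, and 108, 73 and 98 in tumor. Sdpr, a caveolar protein gene, had 135, 166 and 143 reads in blood, 8, 4 and 1 in bone marrow, and 305, 259 and 535 in tumor. Clu, clusterin, had 708, 911 and 567 reads in blood and 23748 to 49725 in tumor. For these genes the blood and tumor libraries both held more reads than any bone marrow library.

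At the other end, Ptgir, the prostacyclin receptor, was lower in blood than in bone marrow by a log2 difference of -3.59 (adjusted p = 9.71e-05). Tuba8, a tubulin gene, differed by -1.77 (adjusted p = 0.00627), Vps33b, needed for alpha granules, by -1.13 (adjusted p = 0.00474) and Vcl, vinculin, by -1.06 (adjusted p = 0.0135). These genes were named for their low values in this comparison, and Tuba8, Vps33b and Vcl were above the filter only in bone marrow. Their p-values are given as a description. Vcl did not pass with quantile normalization (adjusted p = 0.09997) or without the filter (0.0557). The most abundant listed genes in blood were ones that neutrophils express as well. Plek, pleckstrin, had 10886 to 13548 reads in blood and was higher than in bone marrow by 1.26 (adjusted p = 0.00165). Cd9, Nfe2 and Fermt3 did not pass the test in that comparison, with log2 differences of -0.07, -0.23 and -0.37. With quantile normalization, Nfe2 and Fermt3 passed it as lower (adjusted p = 0.0135 and 0.0313). Fermt3 also passed it with limma-voom (0.0455), with only the 2 compartments compared (0.0492), and without the blood 2 or the tumor 1 library (0.0378 and 0.0412). Of 9 tested genes that neutrophils use to bind or answer platelets, 4 were higher in blood than in bone marrow, where 20.6% of all genes were, and 2 lower, where 23.6% were. Among the 4, Selplg, which encodes PSGL-1, had 24474 to 37097 reads in blood and 11660 to 13557 in bone marrow. The 2 lower ones were Mmp9, with 32562 to 50032 reads in blood and 93188 to 101983 in bone marrow, and F3, with 3 to 13 and 47 to 89.

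The genes most like the members were sought among 5660 tested genes with a mean of at least 20 reads in blood, by Pearson's r over the 9 libraries with the members' mean z-score. The 10 highest were Gad1-ps, Tnfsf14, Tbc1d14, Tspan2, H2-Q10, Myadm, Cd101, Nrros, 5031439G07Rik and Fam21, with r of 0.989 to 0.995. None of them is in the platelet lists, and all 10 also had many reads outside blood. Myadm, for instance, had 14179 to 25013 reads in blood and 5150 to 5591 in bone marrow. The first listed platelet gene was Alox12, at rank 55 (r = 0.977). The members themselves had r of 0.900 to 0.981. The points share 3 compartments, and r is given as a description.

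Markers of other cell types also differed between compartments. All 5 tested red cell genes were higher in blood than in bone marrow. The red cell list summed to 293, 608 and 476 RPM in blood, 42.3, 90.8 and 67.8 RPM in bone marrow, and 11.6, 145 and 26.2 RPM in tumor. Klf1, a red cell transcription factor, had 0 reads in blood. Among the tumor libraries, the red cell list was highest in tumor 2. This was not particular to red cells. The B cell list (9.65 RPM against 2.90 in tumor 1 and 5.29 in tumor 3) was highest there too. So were the endothelium list and the eosinophil, basophil and mast cell list. The T and NK cell, monocyte, tumor epithelium, fibroblast and neutrophil lists were highest in another tumor library. For the T and NK cell list (7.54 RPM in tumor 2 against 7.55 in tumor 3) there was almost no difference. The monocyte list differed little (506 RPM in tumor 2 against 519 in tumor 1). The B cell list summed to 88.5 to 149 RPM in blood against 19.97 to 47.6 RPM in bone marrow, and the T and NK cell list to 36.5 to 74.9 RPM against 8.73 to 15.4 RPM. Within the T and NK cell list, Cd3d and Cd4 had lower means in blood (3.04 and 2.04 RPM) than in bone marrow (5.07 and 2.58 RPM). The other genes of that list had higher means in blood. The part of these cell types in the members' difference was not tested.

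Other lists were not highest in the blood libraries. The endothelium list, whose cells share Vwf and Esam with platelets, summed to 35.4 to 42.8 RPM in blood and 100.8 to 136 RPM in tumor. In blood this was nearly all Pecam1, while Cdh5, Tek and Ptprb had 0 reads in every blood library. Monocyte and macrophage genes summed to 1437 to 1686 RPM in blood and 1490 to 1695 RPM in bone marrow. The list of eosinophil, basophil and mast cell genes summed to 123 to 167 RPM in blood and 95.8 to 133 RPM in bone marrow, and the fibroblast list to 0.213 to 5.19 RPM in blood and 962 to 1106 RPM in tumor. Tumor epithelium genes summed to 27.6, 172 and 25.4 RPM in blood, against 1344, 1547 and 1148 RPM of the members. The neutrophil list summed to 41833 to 44174 RPM in blood, 127642 to 142254 RPM in bone marrow and 15296 to 19299 RPM in tumor.

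**Figure D5:**
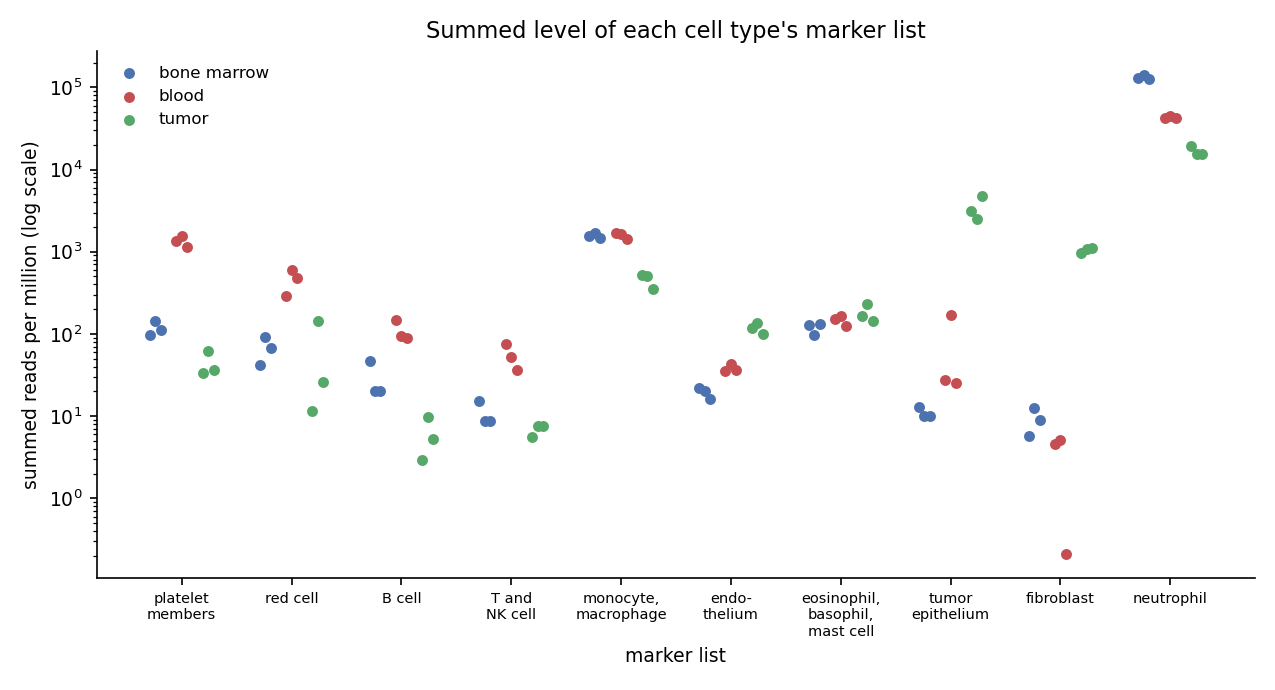
Summed RPM (vertical log axis) of the platelet members and of 9 cell type marker lists (horizontal axis), with 1 point for each library, coloured by compartment. The members and the red cell, B cell and T and NK cell lists are highest in the blood libraries, and the tumor epithelium, fibroblast and endothelium lists in the tumor libraries.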

How the data were processed

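Sorted neutrophils were profiled by SMARTSeq v2 RNA-seq. Per the submitters' processing notes, reads were mapped with STAR 2.5.2b to GRCm38 and counted per gene with featureCounts 1.5.0, and edgeR 3.8.6 is also named. The study's methods give GENCODE M7. The deposited table holds log2 FPKM values made by the authors, for 46517 genes and 9 libraries. Its lengths equal the genomic span for 84.5% of genes matched to GENCODE M21, and its values hold a small constant of 0.143 to 0.287 reads, so whole reads were recovered for every gene within a tolerance of 1e-04. Fold changes of genes with few reads depend on that constant, and pooled ratios of reads with exact intervals are given for them.

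The groups were compared in 1 limma fit with trend (limma 3.58.1, R 4.3.3) on log2 FPKM, over 7794 genes above 0 in at least 3 libraries, with Benjamini-Hochberg adjustment at 0.05. The scripts were tested on simulated data. The members and gene lists were chosen with earlier results of these data known. Named genes were all members, and of the other lists the 8 highest and 4 lowest log2 differences of blood against bone marrow among genes called there and the 4 with most reads in blood. A gene that this rule names is not reported here. Per the study's methods, the 3 libraries of a group are pools from independent experiments, and p-values measure the spread between these pools. Alternatives covered filters, constants, scaling, limma-voom, a block by replicate number and leaving out each library. Same-numbered libraries did not deviate together (r of -0.0714 to 0.108), so the numbers were not taken as pairs.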

Additional observations from a re-analysis of the deposited data

How the results depend on the processing

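Members called lower in tumor than in bone marrow numbered 1 without the filter, where Itgb3 alone was called, and 3 to 4 when a library was left out, with 0 to 1 called higher. The replicate block, whose numbers do not pair the libraries, gave 3 members called lower in tumor than in bone marrow, as without it. Of the other platelet genes, 31 of 77 tested were higher in blood than in bone marrow with a filter on 5 reads, 38 of 77 with limma-voom, 24 of 82 without a filter and 9 of 21 with the stricter one. Lower there were 11 with limma-voom and 4 with the stricter filter or an absolute log2 difference of at least 1. Higher in blood than in tumor were 35, 39, 32 and 12 in the same order, and lower 17 with limma-voom. Higher in tumor than in bone marrow were 23, 26, 21 and 7, and lower 8 with the stricter filter. The members' mean sum in blood was 1130 with plain totals, 1116 without Pf4 and Ppbp and 1018 without Itgb3, which gave 17.0 in bone marrow and 11.2 in tumor. As summed FPKM it was 278 in blood, 5.91 in bone marrow and 2.79 in tumor. Signs turned only in differences not past the threshold. For tumor against bone marrow, Pf4 was at -0.024 with limma-voom, -0.034 and -0.052 with 0.1 and 1 added, -0.62 with quantile normalization and -0.52 to 0.63 with libraries left out, and Treml1 was at -1.78 with quantile normalization. With libraries left out, Ppbp ran from -2.51 to 0.17, Gp1ba from -2.27 to 0.34, Itga2b from -1.04 to 0.016, Tubb1 from -1.38 to 0.50, and Cd9 in blood against bone marrow from -0.23 to 0.022. The cause was not tested. Depth limits the tumor and bone marrow values of all members but Itgb3, most of which rest on fewer than 20 reads a library.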
